A study of Homo sapiens with 14 samples.

Results

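The 10 genes described here encode proteins of the BCL2 family, which decides whether the outer membrane of the mitochondrion is opened during apoptosis. They were chosen by name and matched by symbol to the gene identifiers of the deposited tables. All 10 were found among 78686 identifiers per library, each as 1 identifier and each annotated as protein-coding. There are 6 BH3-only genes (BBC3, PMAIP1, BCL2L11, BID, BIK and BAD), 2 effectors (BAX and BAK1) and 2 prosurvival genes (BCL2L1 and MCL1).

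Stranded total RNA libraries were made from HCT116, a human colon carcinoma line, carrying the auxin receptor osTIR1(F74G). In these cells SAF-A, the product of HNRNPU, bears mAID and Halo tags. All groups, vehicle included, carry these alleles. The compound 5-Ph-IAA directs the tagged SAF-A protein to degradation, and Nutlin blocks MDM2, a ubiquitin ligase. The 14 libraries form 7 groups of n = 2, read from their titles as belonging to 2 sets. The time course holds DMSO vehicle, then 3 h, then 12 h of 5-Ph-IAA. Groups of the Nutlin set are 5-Ph-IAA with Nutlin, Nutlin alone, 5-Ph-IAA alone and DMSO vehicle. Treated libraries of the Nutlin set are labelled 3 h, without saying which compound the time belongs to. The labels do not say whether the tagged line is a single clone.

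BCL2L1 and MCL1 proteins hold the effectors BAX and BAK1 in check. BH3-only proteins either occupy the prosurvival proteins or engage the effectors directly, and so tip the balance towards opening the membrane and releasing cytochrome c. Among the factors known to induce BBC3 (PUMA) and PMAIP1 (NOXA) are the stress factors ATF4 and DDIT3. Which factor acted in these cells was not tested. BID is activated by caspase cleavage, BAD is held off by phosphorylation, and MCL1 is known for rapid turnover of its protein and mRNA.

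Total expected counts were 29.6 to 35.1 M (M, mega) per time-course library, except 3.54 M for 12 h replicate 2, and 12.6 to 17.2 M per library of the Nutlin set. All 10 genes passed the low-count filter in each fit, among 19049 genes tested over time and 17251 tested with Nutlin. The 2 Nutlin libraries stood apart from each other, differing by 19.6 times counting error (chi-square over its degrees of freedom, across genes), against 3.11 to 13.6 times for the other replicate pairs. Calls of the 10 genes were also computed without each of them and without each 12 h library. No label states that replicates came from separate cultures, so the spread behind each p-value may be technical. Epithelial markers ranged from high to near 0. KRT8 had 1271 to 1997 TPM, EPCAM 125 to 163 and CDH1 6.8 to 25.9 TPM. CDX2 had only 1.26 to 4.2 TPM and CLDN3 1.1 to 2.02 TPM, and VIL1 and LGALS4 stayed at 0.47 TPM or below. Of 10 markers of other cell types, 9 stayed at 0.39 TPM or below and COL1A1 reached 1.91 TPM. The HNRNPU transcript does not check loss of the tagged protein, and its log2 change was 0.31 ± 0.063 at 12 h (edgeR adjusted p = 0.00744). That call was lost without 12 h replicate 1 (0.28, edgeR adjusted p = 0.0572) and held without the shallow replicate 2 (0.35, edgeR adjusted p = 0.0101). CDKN1A, a cell cycle inhibitor gene known to respond to Nutlin, rose by 1.27 ± 0.062 on the log2 scale with Nutlin averaged over both arms (edgeR adjusted p = 3.0e-06), and MDM2 by 0.56 ± 0.073 (edgeR adjusted p = 0.00439).

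The promoters of BBC3 and PMAIP1 are shown because these genes moved together with Nutlin. In GENCODE 29 on GRCh38, BBC3 (ENSG00000105327.18) spans chr19:47220822-47232766 on the - strand and PMAIP1 (ENSG00000141682.12) chr18:59899948-59904306 on the + strand. Each window runs from 250 bases before the RefSeq start to 50 bases after it (GRCh38.p14), 5′ to 3′ on the gene's strand. Capitals mark CACGTG, the E-box, in BBC3, and ACGTCA in PMAIP1, which is TGACGT, the core that ATF and CREB factors bind, read on the other strand.
BBC3 (chr19:47232618-47232917, - strand): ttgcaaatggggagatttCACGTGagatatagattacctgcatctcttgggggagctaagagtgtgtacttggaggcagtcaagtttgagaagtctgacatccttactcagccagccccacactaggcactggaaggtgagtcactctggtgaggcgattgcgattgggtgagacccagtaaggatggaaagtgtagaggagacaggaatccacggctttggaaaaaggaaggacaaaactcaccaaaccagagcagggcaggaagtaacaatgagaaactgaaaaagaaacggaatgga
PMAIP1 (chr18:59899746-59900045, + strand): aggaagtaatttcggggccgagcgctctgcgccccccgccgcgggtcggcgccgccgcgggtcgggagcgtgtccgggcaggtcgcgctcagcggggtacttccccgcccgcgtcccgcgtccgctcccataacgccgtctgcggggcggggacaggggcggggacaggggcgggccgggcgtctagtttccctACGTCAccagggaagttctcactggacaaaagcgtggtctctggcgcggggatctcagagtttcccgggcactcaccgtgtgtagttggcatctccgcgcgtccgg
Both strands were searched. CACGTG starts 232 bases before the BBC3 start, and the TGACGT match starts 56 bases before the PMAIP1 start. Of 35116 RefSeq promoter windows of this length, 7.26% hold CACGTG and 7.98% hold TGACGT. Neither window holds TGATGNAA, the CEBP-ATF composite (3.62% of windows). A further motif was searched and is not reported here. These matches describe letters in the window and are not sites shown to be bound. In all, 8 of the 10 genes have a promoter entry, some with several starts. CACGTG was also found in BAX (4 matches) and upstream of some BID starts, and TGACGT upstream of both BAD starts.

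Transcripts of the family spanned a wide range of levels. Within a library, genes are compared as TPM, which is scaled by transcript length. In the time-course vehicle, PMAIP1 stood highest at 69.2 ± 3.2 TPM (SD, n = 2 here and below), followed by BID at 62.5 ± 7.6, BAD at 51.0 ± 1.6, BCL2L1 at 42.5 ± 3.4 and MCL1 at 33.6 ± 2.6 TPM. BAX had 27.0 ± 2.6 TPM, BIK 21.7 ± 0.36, BAK1 9.74 ± 0.76, BBC3 3.52 ± 0.37 and BCL2L11 1.42 ± 0.24 TPM. Among neighbours in this order, the libraries of PMAIP1 and BID overlapped and those of the others did not. In the Nutlin-set vehicle, MCL1 led at 46.9 ± 2.5 TPM, with BID at 45.5 ± 4.0, BCL2L1 at 34.3 ± 2.5, PMAIP1 at 32.9 ± 8.2 and BAD at 32.1 ± 2.6 TPM. There MCL1 overlapped BID, and BCL2L1, PMAIP1 and BAD formed a run of overlapping neighbours. BAX at 15.6 ± 0.75, BIK at 12.4 ± 1.9 and BAK1 at 11.1 ± 1.0 TPM came next, and BCL2L11 at 3.21 ± 0.92 and BBC3 at 3.16 ± 0.18 TPM closed the order with overlapping libraries. BBC3 and BCL2L11 were thus the 2 least abundant transcripts of the 10 in both vehicles, and in each of the other 5 groups as well.

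With Nutlin, 2 of the 6 BH3-only genes rose and none of the effectors or prosurvival genes passed. Levels below are counts scaled to library size (CPM), with TMM factors within a set, and log2 fold changes carry their SE. BBC3 had 11.45 and 11.1 CPM with 5-Ph-IAA and Nutlin, 13.2 and 12.9 with Nutlin alone, 5.16 and 5.41 with 5-Ph-IAA alone, and 6.58 and 5.25 CPM in vehicle. All 4 libraries with Nutlin lay above all 4 without it, by about the same margin with or without 5-Ph-IAA. PMAIP1 had 115 and 102 CPM with 5-Ph-IAA and Nutlin, 104 and 125 with Nutlin alone, 68.4 and 63.3 with 5-Ph-IAA alone, and 66.2 and 74.5 CPM in vehicle. Again the libraries with and without Nutlin did not overlap. In bulk RNA, more transcript per cell and more cells carrying it cannot be told apart.

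**Figure D1:**
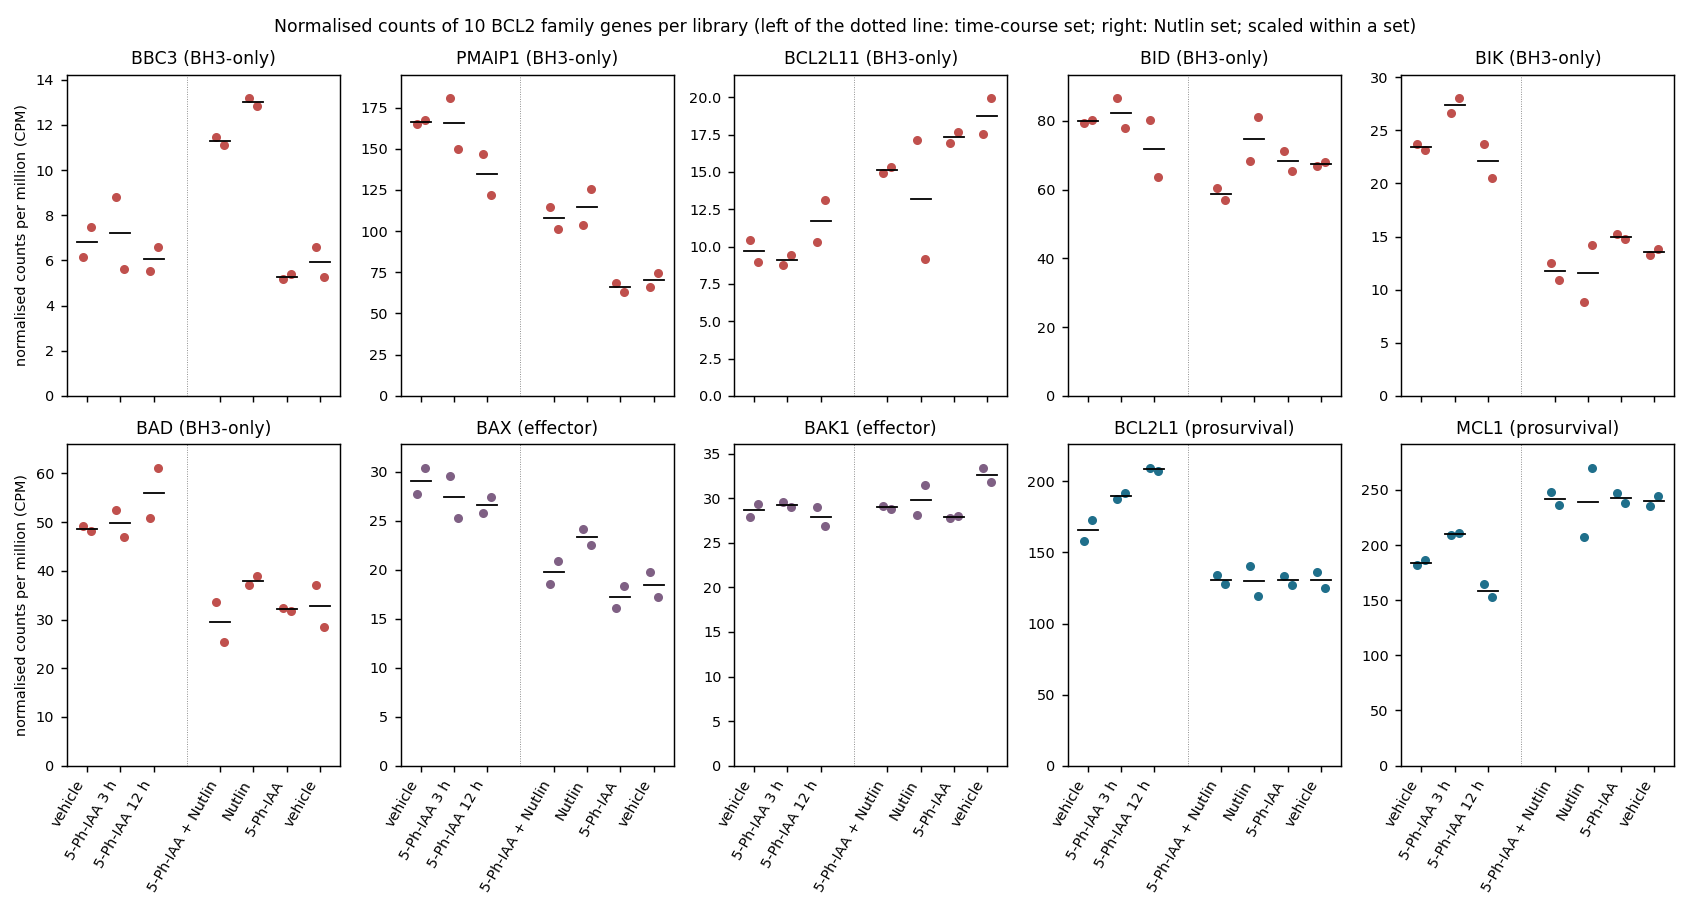
Normalised counts (CPM, TMM within a set, linear axes from 0) of the 10 genes, 1 point per library and a bar at the mean of n = 2, with the time-course set left of the dotted line and the Nutlin set right of it. BBC3 and PMAIP1 are higher in all 4 libraries with Nutlin (at least 11.1 and 101.5 CPM) than in the 4 without, and BCL2L1 lies highest at 12 h of 5-Ph-IAA (209 and 207 CPM).

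Averaged over cells with and without 5-Ph-IAA, BBC3 rose by 1.11 ± 0.12 on the log2 scale, a fold of 2.17 (edgeR adjusted p = 0.00124), and PMAIP1 by 0.71 ± 0.085, a fold of 1.63 (edgeR adjusted p = 0.00242). These were 2 of 10 family genes, against 1.44% of all genes tested that passed in either direction and 0.956% that passed upward. The 10 genes were chosen with earlier results of these data known, so these shares are background and not an independent comparison. Nutlin alone against vehicle gave 1.13 ± 0.17 for BBC3 (edgeR adjusted p = 0.0204) and 0.70 ± 0.12 for PMAIP1 (edgeR adjusted p = 0.0398), with 0.464% of genes passing. In that comparison 6 of 10 family genes had groups that did not overlap, against 36.1% of all genes. The combination against 5-Ph-IAA alone gave 1.10 ± 0.17 (edgeR adjusted p = 0.028) and 0.71 ± 0.12 (edgeR adjusted p = 0.0424), with 0.388% passing. Against vehicle the combination gave 0.93 ± 0.17 for BBC3 (edgeR adjusted p = 0.0603) and 0.62 ± 0.12 for PMAIP1 (edgeR adjusted p = 0.0831), and no family gene passed there, against 0.325% of all genes, with 2 members (7.26% of all genes) at an unadjusted p under 0.05. DESeq2 passed 1 of the 10 in that comparison, PMAIP1, with 0.603% of all genes passing. A fit of only the compared groups passed both genes there (edgeR adjusted p = 0.00892 for BBC3 and 0.000737 for PMAIP1), with 2.39% of all genes passing. The same kind of fit passed neither gene for Nutlin alone (edgeR adjusted p = 0.205 and 0.256), with 0.168% passing.

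Whether 5-Ph-IAA altered the response was tested with the interaction term. It was -0.04 ± 0.24 for BBC3 and 0.01 ± 0.17 for PMAIP1 on the log2 scale (edgeR adjusted p = 0.998 and 0.9999). No family gene passed this test (0% of all 17251 genes did), 1 member (BID) had an unadjusted p under 0.05 as did 3.61% of all genes, and DESeq2 passed none of the 10.

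Single-library checks changed the calls made in 1 arm. Without vehicle replicate 1, the edgeR adjusted p for Nutlin alone was 0.0968 for BBC3 and 0.413 for PMAIP1, and without vehicle replicate 2 it was 0.273 and 0.241. Without Nutlin replicate 1 the log2 changes were 1.12 and 0.84, and without Nutlin replicate 2 they were 1.15 and 0.56. Many more of all genes passed in both of these fits than with all libraries, so calls there are not particular to these genes. Both calls of the combination against 5-Ph-IAA alone were lost whichever 1 of its 4 libraries was left out (edgeR adjusted p of 0.208 to 0.393 for BBC3 and 0.19 to 0.656 for PMAIP1). With any 1 library left out, the averaged log2 value was 1.04 to 1.20 for BBC3 and 0.63 to 0.77 for PMAIP1.

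**Figure D2:**
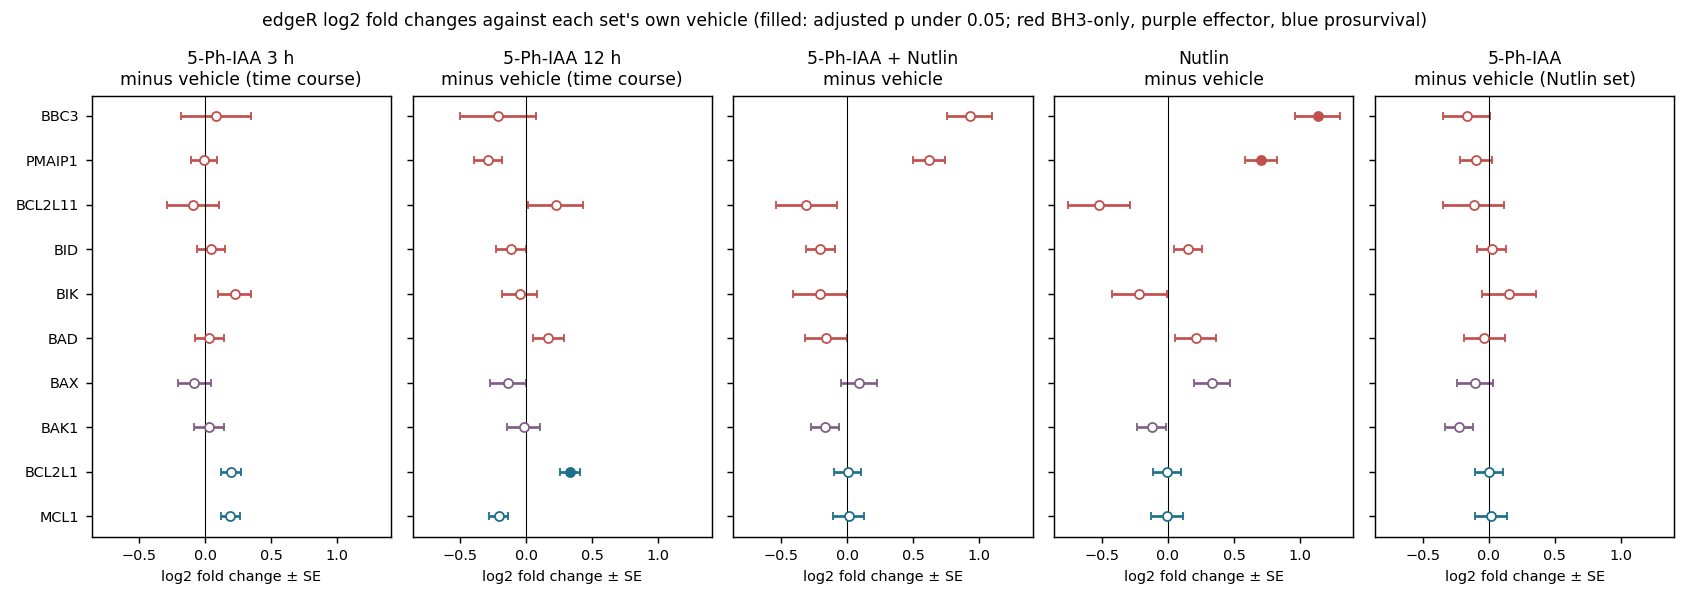
Log2 fold changes (edgeR, points) with their SE (bars) for the 10 genes in 5 comparisons, each treated group against the vehicle of its own set; filled points have an adjusted p under 0.05. The filled points are BBC3 and PMAIP1 with Nutlin (1.13 and 0.70) and BCL2L1 at 12 h of 5-Ph-IAA (0.33).

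PMAIP1 was the more abundant of the pair throughout. It made up 35.0% and 35.2% of the summed BH3-only TPM with 5-Ph-IAA and Nutlin, 29.7% and 31.3% with Nutlin, 23.0% and 23.4% with 5-Ph-IAA, and 22.5% and 28.0% in vehicle. BBC3 made up 4.16% and 4.70% in the combination, 4.42% and 3.87% with Nutlin, 2.13% and 2.09% with 5-Ph-IAA, and 2.52% and 2.38% in vehicle.

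The other 4 BH3-only genes did not pass with Nutlin. BCL2L11 (BIM, a potent activator of BAX and BAK1) had 17.2 and 9.20 CPM with Nutlin and 17.5 and 19.9 CPM in vehicle. Both Nutlin libraries lay below both vehicle libraries, but replicate 1 by little and replicate 2 by much. The log2 change was -0.52 ± 0.24 (edgeR adjusted p = 0.471). Without Nutlin replicate 1 it was -1.02 and passed (edgeR adjusted p = 0.000684), and without replicate 2 it was -0.13 (edgeR adjusted p = 0.688). Those fits passed 11.6% and 6.40% of all genes, against 0.464% with both libraries. BIK, a BH3-only protein of the endoplasmic reticulum, split the other way, with 8.81 and 14.2 CPM in Nutlin libraries and 13.2 and 13.8 CPM in vehicle. Its log2 change was -0.22 ± 0.21 (edgeR adjusted p = 0.755), -0.62 without Nutlin replicate 2 (edgeR adjusted p = 0.0469) and 0.08 without replicate 1. Averaged over both arms, BCL2L11 had -0.36 ± 0.17 and BIK -0.29 ± 0.14 on the log2 scale (edgeR adjusted p = 0.392 and 0.444). In both averages 1 Nutlin library decided the call: without Nutlin replicate 1 BCL2L11 had -0.61 (edgeR adjusted p = 0.00118), and without Nutlin replicate 2 BIK had -0.49 (edgeR adjusted p = 0.00926), in fits where 9.07% and 10.7% of all genes passed.

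BID, which links death receptors to mitochondria, had 60.5 and 57.0 CPM with 5-Ph-IAA and Nutlin, 68.4 and 81.2 with Nutlin alone, 71.3 and 65.5 with 5-Ph-IAA alone, and 66.9 and 68.1 CPM in vehicle. The combination held the 2 lowest libraries of the set, and Nutlin replicate 2 the highest. Its interaction term was -0.37 ± 0.15 on the log2 scale (edgeR unadjusted p = 0.0348, adjusted p = 0.989). Without Nutlin replicate 1 this was -0.49 (edgeR adjusted p = 0.0253), in a fit where 1035 genes passed in place of 0. In that fit BCL2L11 also passed, at 0.82 (edgeR adjusted p = 0.0236), against 0.32 ± 0.33 with all libraries (edgeR adjusted p = 0.989). BAD ranged from 25.4 to 38.9 CPM over the 8 libraries, with the combination at 33.6 and 25.4, Nutlin at 37.1 and 38.9, 5-Ph-IAA at 32.4 and 31.9, and vehicle at 37.1 and 28.6 CPM. Its vehicle replicates alone spanned most of that range.

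Of the effectors, BAX moves to mitochondria when activated and BAK1 is a resident of the outer mitochondrial membrane. BAX had 18.6 and 20.9 CPM with 5-Ph-IAA and Nutlin, 24.2 and 22.5 with Nutlin alone, 16.1 and 18.4 with 5-Ph-IAA alone, and 19.8 and 17.2 CPM in vehicle. Nutlin libraries lay above their own controls in both arms, by less than BBC3 or PMAIP1 did. The log2 change was 0.33 ± 0.14 for Nutlin alone (edgeR adjusted p = 0.426), 0.20 ± 0.14 in the combination against 5-Ph-IAA (edgeR adjusted p = 0.811) and 0.27 ± 0.096 as the average (edgeR adjusted p = 0.261). For Nutlin alone BAX had 0.28 without Nutlin replicate 1 and 0.38 without replicate 2 and passed in neither fit (edgeR adjusted p = 0.221 and 0.147). BAK1 had 29.2 and 28.8 CPM with 5-Ph-IAA and Nutlin, 28.2 and 31.5 with Nutlin, 27.8 and 28.0 with 5-Ph-IAA, and 33.4 and 31.8 CPM in vehicle. The 2 vehicle libraries were the highest of the 8, and 5-Ph-IAA alone gave -0.22 ± 0.11 on the log2 scale (edgeR unadjusted p = 0.0635, adjusted p = 1).

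The prosurvival genes stayed within their replicate spread with Nutlin. BCL2L1 had 134 and 128 CPM with 5-Ph-IAA and Nutlin, 141 and 119 with Nutlin, 134 and 127 with 5-Ph-IAA, and 136 and 125 CPM in vehicle. MCL1 had 248 and 236 CPM in the combination, 208 and 270 with Nutlin, 247 and 238 with 5-Ph-IAA, and 236 and 245 CPM in vehicle. All 4 groups overlapped for both genes, and the 2 Nutlin libraries of MCL1 were the lowest and the highest of the set. Between BCL2L11 at the low end and BAX at the high end, the 8 members that did not pass with Nutlin alone spanned -0.52 to 0.33 on the log2 scale.

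For 5-Ph-IAA alone in the Nutlin set no member passed by edgeR or DESeq2, and 0% of all genes passed edgeR. With n = 2 a group, this does not show that the 10 genes were unchanged. None of the 10 had an unadjusted p under 0.05, against 245 of 17251 genes tested (1.42%). Log2 changes ran from -0.22 for BAK1 to 0.15 ± 0.20 for BIK. In the time-course set at 3 h, again no member passed, against 0.0682% of genes by edgeR, with none by DESeq2. There the 2 with an unadjusted p under 0.05 were the prosurvival genes, against 6.45% of all genes. Groups did not overlap for 3 of 10 members (BCL2L1, BIK and MCL1), near the 38.8% of all genes.

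BCL2L1 (BCL-XL, ENSG00000171552.14, chr20:31664452-31723989 on the - strand) had 158 and 173 CPM in time-course vehicle, 187 and 192 at 3 h and 209 and 207 at 12 h of 5-Ph-IAA. The 3 times did not overlap. Its log2 change was 0.20 ± 0.073 at 3 h (edgeR adjusted p = 0.73) and 0.33 ± 0.076 at 12 h, a fold of 1.26 (edgeR adjusted p = 0.0139). It was the 1 member that passed at 12 h, where 11.4% of all genes passed and 3.39% passed upward, so 1 of 10 is near the background. Groups did not overlap for 5 of 10 members at 12 h, near the 50.8% of all genes, and 3 of 10 had an unadjusted p under 0.05, against 25.3%. Without the shallow 12 h replicate 2 the log2 change was 0.34 (edgeR adjusted p = 0.0322). Without 12 h replicate 1, which leaves the shallow library as the only one at 12 h, it was 0.34 and did not pass (edgeR adjusted p = 0.0781). BCL2L1 counts were fractional in all 14 libraries, so some reads were shared out by the authors' estimation, and the antisense genes ABALON and AL117381.1 overlap it in GENCODE 29. The counting strand is not given in the sources used here. Counts of BAD were also fractional in all 14 libraries, those of BCL2L11 in 12, MCL1 in 5 and PMAIP1 in 2. On the opposite strand GPR137 overlaps BAD, MIR4435-2HG overlaps BCL2L11 and GGNBP1 overlaps BAK1.

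MCL1 (ENSG00000143384.14, chr1:150574551-150579738 on the - strand) had 182 and 187 CPM in vehicle, 209 and 211 at 3 h, and 164 and 153 at 12 h. The 3 h libraries lay above vehicle and the 12 h libraries below it, with no overlap. Log2 changes were 0.19 ± 0.071 at 3 h (edgeR adjusted p = 0.734) and -0.21 ± 0.074 at 12 h (edgeR adjusted p = 0.0967), and neither passed. At 12 h MCL1 had -0.26 without replicate 1 and -0.17 without replicate 2 (edgeR adjusted p = 0.167 and 0.265). The 3 h change did not pass a test of the difference between sets for either prosurvival gene. The Nutlin set minus the time-course set gave -0.21 ± 0.10 for BCL2L1 and -0.19 ± 0.087 for MCL1 (edgeR adjusted p = 0.801 and 0.781), and BAK1 had -0.27 ± 0.14. None of the 10 passed that test (0.0636% of all genes did), none had an unadjusted p under 0.05 (6.35% of all genes did), and DESeq2 passed none.

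PMAIP1 had 165 and 167 CPM in vehicle, 181 and 150 at 3 h, and 147 and 122 at 12 h. The 12 h libraries were the lowest of the time course, and the log2 change was -0.29 ± 0.11 (edgeR adjusted p = 0.109). It was -0.44 without 12 h replicate 1 and -0.18 without replicate 2, and passed in neither fit (edgeR adjusted p = 0.0772 and 0.327). BBC3 rested on few reads at 12 h, with 24 counts in the shallow library, and had 6.16 and 7.46 CPM in vehicle, 8.82 and 5.60 at 3 h and 5.51 and 6.58 at 12 h, with all 3 times overlapping. The 7 members that showed no unadjusted p under 0.05 at 12 h lay between -0.21 ± 0.29 (BBC3) and 0.22 ± 0.21 (BCL2L11) on the log2 scale. At 3 h the 10 members lay between -0.09 ± 0.20 (BCL2L11) and 0.22 ± 0.12 (BIK).

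The 3 classes were also set against each other per library as summed TPM, with no test because the sums and the class lists were chosen with results known. In the Nutlin set, the BH3-only sum was 151 and 144 TPM with 5-Ph-IAA and Nutlin, 158 and 158 with Nutlin, 137 and 129 with 5-Ph-IAA, and 120 and 138 TPM in vehicle. The prosurvival sum was 85.6 and 86.3 TPM in the combination, 85.1 and 79.4 with Nutlin, 86.0 and 81.5 with 5-Ph-IAA, and 77.6 and 84.8 TPM in vehicle. The ratio of the BH3-only sum to the prosurvival sum was 1.77 and 1.67 in the combination, 1.85 and 1.99 with Nutlin, 1.59 and 1.58 with 5-Ph-IAA, and 1.55 and 1.63 in vehicle. All 4 libraries with Nutlin had a higher ratio than the 4 without, also on counts not scaled by length. The ratio is not a trait of the whole BH3-only class. In the combination against 5-Ph-IAA alone their median log2 change was -0.16, with 2 of 6 above 0. For Nutlin alone against vehicle it was 0.18, with 4 of 6 above 0. PMAIP1, which passed on its own, made up 35.0% and 35.2% of the BH3-only sum in the combination and 23.0% and 23.4% with 5-Ph-IAA.

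In the time-course set the BH3-only sum was nearly level, at 200 and 218 TPM in vehicle, 213 and 204 at 3 h and 210 and 203 at 12 h. The prosurvival sum was 71.9 and 80.4 TPM in vehicle, 88.4 and 89.2 at 3 h, and 97.5 and 93.4 at 12 h. Their ratio was 2.79 and 2.72 in vehicle, 2.41 and 2.28 at 3 h, and 2.15 and 2.17 at 12 h, with no overlap between times. On counts not scaled by length the ratio was 0.984 and 0.933 in vehicle, 0.918 and 0.789 at 3 h, and 0.850 and 0.796 at 12 h, and there 3 h and 12 h overlapped. The 12 h difference in mean log2 ratio was -0.35 on TPM and -0.22 on counts. As differences of mean log2 ratio, Nutlin alone gave 0.27 and the combination 0.11 against their vehicle, 5-Ph-IAA alone -0.0037, and the time course -0.23 at 3 h and -0.35 at 12 h, with pooled SDs of 0.019 to 0.063. The 2 effectors summed to 26.7 and 30.9 TPM in the combination, 42.1 and 26.3 with Nutlin, 26.2 and 25.9 with 5-Ph-IAA, and 25.5 and 28.0 TPM in vehicle, with 1 Nutlin library far above the rest.

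**Figure D3:**
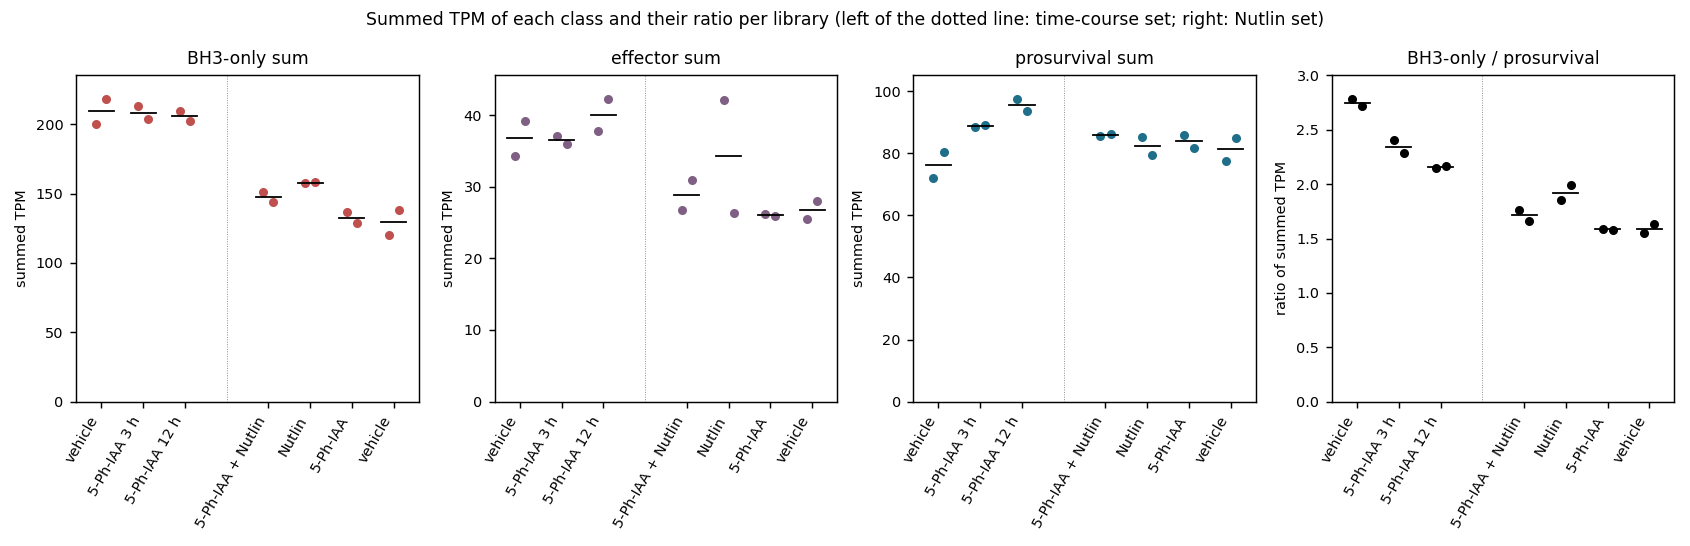
Summed TPM of the 6 BH3-only, 2 effector and 2 prosurvival genes per library, and the ratio of the BH3-only to the prosurvival sum, on linear axes from 0 with a bar at the mean of n = 2. In the Nutlin set the ratio is 1.665 or more with Nutlin and 1.63 or less without it, and in the time-course set it is 2.17 or less at 12 h and 2.716 or more in vehicle.

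TPM depends on the transcript length that the authors' RSEM run assigned to a gene in each library, and that length moved between libraries for several members. PMAIP1 had 1817 and 1821 bases in time-course vehicle, 1794 and 1765 at 3 h, and 1750 and 1755 at 12 h, BAD had 833 and 827 at 12 h against 875 and 862 in vehicle, and BCL2L11 ranged from 3243 to 5098 bases over the 14 libraries. MCL1 and BAX are given in full, and were chosen with their values known. Genes outside the family also had shorter mean lengths at 12 h than in vehicle. XIAP had 2234 against 3827 bases, MFN1 2212 against 3125 and YWHAZ 1348 against 1617. Some went the other way, such as HUWE1 at 7965 against 6753 bases. The share of all genes with shorter lengths is not given, so the MCL1 and BAX lengths are not shown to be particular to them. MCL1, which is known to be spliced to a long prosurvival form and shorter forms, had a weighted transcript length of 3874 and 3790 bases in time-course vehicle, 3406 and 3668 at 3 h, and 2860 and 3172 at 12 h. The 3 times did not overlap. In the Nutlin set it was 3619 and 3767 bases with 5-Ph-IAA and Nutlin, 3182 and 3488 with Nutlin, 3505 and 3890 with 5-Ph-IAA, and 3380 and 3862 in vehicle, all groups overlapping vehicle. At 12 h the MCL1 count level was lower than in vehicle while its TPM was higher, at 42.2 and 36.3 TPM against 31.8 and 35.5 TPM in vehicle. In limma on log2(TPM + 0.5), the 12 h change was 0.22 (adjusted p = 0.352), the opposite sign to the count test, so no direction is given for MCL1 at 12 h.

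BAX had a weighted length of 730 and 1058 bases in the 2 Nutlin libraries and 1016 and 994 in vehicle. Its TPM was 32.2 and 16.5 with Nutlin and 15.1 and 16.2 in vehicle. Nutlin replicate 1, with the short length and the high TPM, had 24.2 CPM, against 22.5 CPM in replicate 2. In the time-course set BAX had 950 and 950 bases in vehicle, 913 and 870 at 3 h, and 856 and 815 at 12 h, with no overlap between times, while its log2 count change at 12 h was -0.14 ± 0.14 (edgeR adjusted p = 0.595). The gene tables do not say which transcripts changed share, and lengths were not tested. BIK has 1 transcript and kept 951 bases in all 14 libraries, and BAK1 stayed between 2170 and 2176 bases.

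**Figure D4:**
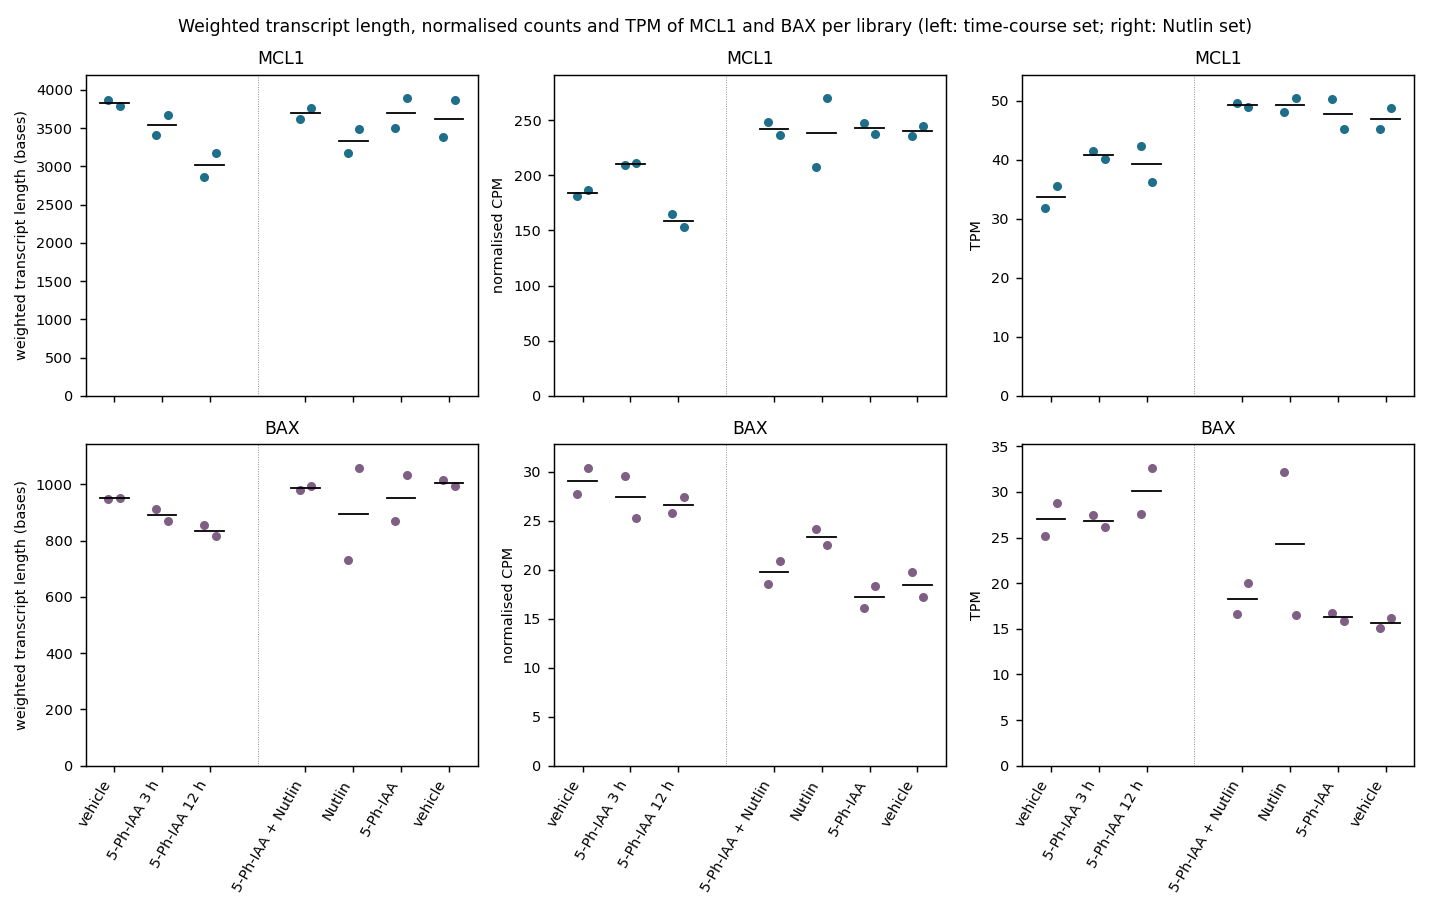
Weighted transcript length (bases), normalised CPM and TPM of MCL1 (top) and BAX (bottom) per library, on linear axes from 0 with a bar at the mean of n = 2. The MCL1 length is 2860 and 3172 bases in the 12 h libraries, and 1 Nutlin library has a BAX length of 730 bases and a TPM of 32.2.

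Patterns like those of BBC3 and PMAIP1 were sought among 12866 genes by Pearson's r of log2 CPM over the 8 libraries of the Nutlin set. For both genes the 4 libraries with Nutlin lay above the 4 without. So r mostly describes that contrast, and it is given without a test. The 5 genes most like BBC3 were JUN (r = 0.991), a stress-induced AP-1 factor, GDF15 (0.99), a secreted stress factor, SLC3A2 (0.989), a subunit of amino acid transporters, MTHFSD (0.985) and DDIT4 (0.984), an inhibitor of mTORC1. The 5 most like PMAIP1 were IFRD1 (0.9945), LIVAR (0.988), CEBPG (0.988), a dimer partner of ATF4, ZNF674 (0.983) and SLC30A1 (0.982), a zinc exporter.

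Transcription factors and cofactors known to regulate BH3-only genes were counted next. Averaged over both arms, 6 of 15 tested rose with Nutlin, none fell, and the list's median was 0.25 on the log2 scale. Over all genes tested the median was -0.0017, and 0.956% passed upward. The list was chosen with earlier results of these data known, so this is not an independent comparison. The 6 were DDIT3, ATF3, TRIB3, JUN, ATF4 and CEBPB, all part of stress signalling, and the same 6 passed for Nutlin alone and for the combination against either control. DDIT3 had 126 and 112 CPM in the combination, 147 and 152 with Nutlin, 15.3 and 18.3 with 5-Ph-IAA, and 15.2 and 14.5 CPM in vehicle. ATF4 had 704 and 644 CPM in the combination, 748 and 815 with Nutlin, 416 and 396 with 5-Ph-IAA, and 401 and 377 CPM in vehicle. The libraries with and without Nutlin did not overlap for either gene. Averaged log2 changes were 3.08 ± 0.084 for DDIT3, 0.87 ± 0.066 for ATF4, 1.62 ± 0.082 for TRIB3 and 1.07 ± 0.11 for CEBPB (edgeR adjusted p from 8.8e-08 to 0.00109). DESeq2 passed 7 upward and 1 downward, with 1.9% of all genes passing in either direction. Without Nutlin replicate 1 the averaged split was 7 up and 2 down by edgeR, and without replicate 2 it was 8 up and 1 down, in fits that passed 9.07% and 10.7% of all genes.

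The rest of the pathway did not pass with Nutlin averaged over both arms, by edgeR or DESeq2. This covered 9 other BCL2 family genes, 15 of the apoptosome and caspases, 7 inhibitors of apoptosis and their antagonists, 15 genes of turnover and sequestration and 8 of the outer membrane and its dynamics. Of these lists 1, 1, 2, 4 and 0 genes had an unadjusted p under 0.05, and their medians lay between -0.04 (turnover) and 0.11 (other family genes) on the log2 scale. Without Nutlin replicate 1, 2 genes passed upward and 3 downward over the 5 lists, and without replicate 2, 3 upward and 7 downward, again in fits that passed 9.07% and 10.7% of all genes. Their most expressed members were BNIP3 (-0.10) and BNIP3L (-0.09), mitophagy receptors, CYCS (-0.12), cytochrome c, and DFFA (0.09), inhibitor of the caspase-activated nuclease. Further such members were BIRC5 (-0.20), survivin, BIRC6 (-0.14), YWHAZ (-0.04), a 14-3-3 protein that binds phosphorylated BAD, DYNLL1 (0.05), which binds BCL2L11, and the channels VDAC2 (-0.04) and VDAC1 (-0.03).

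At 12 h of 5-Ph-IAA genes of all 6 lists passed, at a time when 3.39% of all genes passed upward and 7.97% downward. The mitochondrial dynamics genes DNM1L, MFN1 and OPA1 fell by 0.40 ± 0.075, 0.46 ± 0.088 and 0.25 ± 0.070 on the log2 scale (edgeR adjusted p = 0.00547, 0.00592 and 0.036), 3 of 8 of their list. CYCS fell to 358 and 304 CPM at 12 h, against 493 and 475 CPM in vehicle (log2 change -0.54 ± 0.080, edgeR adjusted p = 0.00158), and CASP2 rose by 0.58 ± 0.13 (edgeR adjusted p = 0.0124), both of 15. BNIP3 and BNIP3L fell by 0.47 ± 0.13 and 0.55 ± 0.13 (edgeR adjusted p = 0.0336 and 0.0162), 2 of 11 other family genes. BIRC2, an inhibitor of apoptosis, fell by 0.75 ± 0.10 (edgeR adjusted p = 0.000966), 1 of 7. HUWE1, a ubiquitin ligase of MCL1, had 514 and 604 CPM at 12 h, against 339 and 369 CPM in vehicle. That was a log2 rise of 0.65 ± 0.091 (edgeR adjusted p = 0.00108), 1 of 15. Its level also varied widely between the libraries with Nutlin alone (534 ± 254 CPM, SD).

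Of the regulators at 12 h, ATF4 and MYC rose by 0.31 ± 0.065 and 0.23 ± 0.068 and HIF1A fell by 0.27 ± 0.080 (edgeR adjusted p = 0.00939, 0.0499 and 0.0492). Without 12 h replicate 2 (9.53% of all genes passing), 2 of 8 outer-membrane genes and 1 of 11 other family genes passed downward and 1 of 15 regulators passed upward, and the other 3 lists kept their counts. Without 12 h replicate 1 (4.67% passing), none of those first 3 lists had a gene that passed. In that fit the apoptosome and caspase list had none up and 1 down, the inhibitors of apoptosis 2 down and the turnover list 1 up. At 3 h no gene of these 6 lists passed by edgeR, with 0 to 5 genes a list at an unadjusted p under 0.05, and DESeq2 passed 1, a regulator.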

How the data were processed

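RNA was extracted with Trizol and made into stranded total RNA libraries, per the labels' protocols. STAR 2.7.10b, RSEM, DESeq2 1.48.1 and hg38 are named, without roles, per the submitters' processing notes, and the annotation release, RSEM's version and the counting strand are not given in the sources used here. The deposited tables give an expected count per gene (estimated by the authors with RSEM, not normalised), TPM computed by the authors (per length and per library) and the transcript lengths behind them, which are neither a level nor a count. All 10 genes and all lists were chosen with earlier results of these data known.

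Expected counts were rounded and fitted per set in edgeR 4.0.16 (quasi-likelihood F test, TMM, filterByExpr at its settings of 10 counts and 15 in total, R 4.3.3), with 1 coefficient per group and Benjamini-Hochberg adjustment over all tested genes at 0.05. The time-course fit tested 19049 genes, the Nutlin fit 17251 and the difference between sets 18873. Fractional counts come from reads the authors' estimation divided between genes. Alternatives were DESeq2 1.42.0, RLE size factors, no filter, a replicate block, fits on the compared groups or all 14 libraries, limma 3.58.1 on log2(TPM + 0.5), and each library left out. A lone library left in a group borrows the spread of the remaining groups. The code was tested on simulated counts. Symbols were matched for 61463 identifiers (78.1%). Class sums and transcript lengths got no test. A gene counted in the regulator list is not reported here by name.

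The text names the 10 genes, HNRNPU, CDKN1A and MDM2 as checks, up to 6 genes by p that passed from each list and comparison, the 2 most expressed members of a list where none passed, and the 5 genes most like BBC3 and PMAIP1 among genes with a mean log2 CPM of at least 1. Python 3.11.15, pandas 2.3.3 and matplotlib 3.10.9 were used for tables and figures.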

Additional observations from a re-analysis of the deposited data

How the results depend on the processing

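Over 90 log2 changes (10 genes in 9 comparisons) and 1080 alternative values, 936 kept direction and side of the threshold, 105 changed sign with no call in either fit, 14 gained a call and 25 lost one. The cause was not tested. Counts of genes that passed moved more. At 3 h (13 genes) DESeq2 gave 54, no filter 193, the replicate block 45, limma on TPM 2, and leaving out 1 library 23 to 283. At 12 h (2163) limma gave 2, the compared groups alone 1391, and leaving out 1 library 961 to 2446. For Nutlin (80) these were DESeq2 158, no filter 405, limma 31, compared groups 27, and 25 to 2131. For 5-Ph-IAA in the Nutlin set (0) DESeq2 gave 1, no filter 53 and compared groups 9. For the combination against vehicle (56) DESeq2 gave 104, no filter 268, compared groups 392, all 14 libraries 88, and leaving out 1 library 21 to 30. For the combination against 5-Ph-IAA (67) these were 103, 270, 622 with compared groups, limma 28, and 16 to 28. For the averaged Nutlin effect (249) no filter gave 635, limma 62, and leaving out 1 library 84 to 1977. The interaction (0) had 1 by DESeq2, 57 with no filter, and 0 to 1035. The difference between sets (12) had 47, 177, 6 with the replicate block, limma 2, all 14 libraries 3, and 5 to 145.

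Same-numbered replicates did not deviate together (r from -0.089 to 0.047 across genes), so the numbers are not taken as pairs. With the replicate block, BBC3 kept its Nutlin call (edgeR adjusted p = 0.0423) and PMAIP1 lost it (0.0803), both lost the call against 5-Ph-IAA (0.0598 and 0.0865), PMAIP1 at 12 h gained one (-0.31, 0.0316), and BCL2L1 at 12 h kept its own (0.00679).

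For the combination against 5-Ph-IAA, leaving out any 1 library ended both calls (edgeR adjusted p 0.208 to 0.393 for BBC3 and 0.19 to 0.656 for PMAIP1). In limma on TPM the averaged Nutlin effect had an adjusted p of 0.0112 for BBC3 and 0.0574 for PMAIP1, Nutlin alone 0.18 and 0.512, and BCL2L1 at 12 h 0.105. There HNRNPU at 12 h (0.0854) and MDM2 with Nutlin on average (0.0572) also lost their calls. Signs turned at 12 h in limma for BAX (0.15) and MCL1 (0.22), and in the interaction for BBC3 (0.15). With 1 library left out, values spanned 0 for the interaction of BBC3 (-0.22 to 0.10), PMAIP1 (-0.13 to 0.15) and BCL2L11 (-0.070 to 0.82), for BCL2L11 at 3 h (-0.19 to 0.043) and for BIK with Nutlin (-0.62 to 0.080). The log2 class ratio moved without MCL1 to -0.18 at 3 h, -0.43 at 12 h and 0.35 with Nutlin, and on counts not scaled by length to -0.17, -0.22, 0.35 and, for 5-Ph-IAA, -0.043. BBC3 had 24 counts in the shallow 12 h library.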

Other observations

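Other prosurvival and BH3-only genes were low. BCL2, the founding member of the family, lay at 0.30 to 0.82 TPM over the 14 libraries, and HRK, a BH3-only gene, at 0.14 to 0.75 TPM. BMF, another BH3-only gene, did not exceed 0.41 TPM, and BCL2A1 was at 0 in all 14 libraries. BCL2L2 (BCL-W) lay at 4.04 to 8.19 TPM and BOK, an effector-like member, at 7.67 to 12.2 TPM.

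MDM2 had 220 and 230 CPM at 12 h of 5-Ph-IAA, against 294 and 296 CPM in the time-course vehicle, a log2 change of -0.39 ± 0.066 (edgeR adjusted p = 0.00291). In limma on log2(TPM + 0.5) it was -0.12 and did not pass (adjusted p = 0.643). Its 12 h libraries did not overlap vehicle.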
